A study of Mus musculus with 6 samples.

Results

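The ribosomal protein pseudogenes described here are the rows of the deposited table whose GENCODE M21 symbol begins with Rpl or Rps and a digit, contains -ps, and has a value above 0 in at least 1 of the 6 samples. There were 194 of them, among 33678 genes listed above 0. They comprised 121 copies of large-subunit (Rpl) genes and 73 copies of small-subunit (Rps) genes, and they belonged to 53 parent genes, the parent being the gene named before -ps. RNA came from the tibialis anterior, a muscle of the lower hind limb, of adult mice. The wild-type group (WT, titled C57) and the group without Dock3 (Dock3 KO) had 3 muscles each. Dock3 encodes a guanine nucleotide exchange factor that activates the small GTPase Rac. The labels give no treatment, no strain for the Dock3 KO mice and no age beyond adult. They do not say whether the muscles of a group came from litters of their own, so p-values measure the spread between these muscles.

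A ribosomal protein is a structural part of the large or the small subunit of the ribosome, the particle that translates mRNA into protein. A processed pseudogene is a copy of a spliced mRNA that was reverse transcribed and inserted elsewhere in the genome, so it has no introns and usually lacks the promoter of its parent. Highly transcribed genes such as those of ribosomal proteins have left many such copies in mammalian genomes. Where a copy still matches its parent, a short read from the shared stretch fits both loci, and its assignment to one of them rests on the few bases that differ. The values of the genes below are uncertain for that reason, parents and copies alike.

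Of the 194 pseudogenes, 184 were annotated as processed pseudogenes and 6 as transcribed processed pseudogenes. The other 4 were annotated as protein coding in spite of their symbols, and the pair with the highest means of all, Rpl10-ps3 and Rps12-ps3, was among these. Members lay on 20 chromosomes, with 16 on the X. Of the 194, 125 overlapped no other annotated gene, and 28 overlapped one on the same strand. The largest families were those of Rpl31 with 14 copies, Rps12 with 13, Rps2 with 10, and Rpl17 and Rpl19 with 9 each. A further 83 rows with such symbols were listed at 0 in all samples and were not used.

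Sequence shows how little separates some of the copies named below from their parents. Stretches are shown for copies of Rpl3, Rpl15 and Rps13, of which only Rpl3-ps1 and Rpl15-ps2 passed the test described below. Rps2-ps10 passed it too, and its substitutions are listed further below without a stretch. Rpl3-ps1 (ENSMUSG00000084349), a copy of the gene of a large-subunit protein, lies at chrX:13202571-13203780 on the plus strand of GRCm38 and overlaps no other annotated gene. It matched the Rpl3 transcript over 1210 bases at 99.8% identity. The mismatches in the coding sequence were C57A and T786C, counted from 1 at the A of the parent's start codon, with the parent's base first, and both were synonymous. Of its 1180 words of 31 bases, 1118 also occurred in Rpl3 and 31 occurred in no other annotated gene. Coding bases 12 to 101 of Rpl3, and the same stretch of the copy at chrX:13202583-13202672, are shown with the base that differs in capitals.

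Rpl3: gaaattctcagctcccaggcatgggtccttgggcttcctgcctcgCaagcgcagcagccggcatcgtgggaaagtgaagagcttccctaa

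Rpl3-ps1: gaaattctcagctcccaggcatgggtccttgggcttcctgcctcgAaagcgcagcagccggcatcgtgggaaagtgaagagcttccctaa

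Rpl15 encodes another large-subunit protein. Its copy Rpl15-ps2 (ENSMUSG00000098915) lies at chr9:72060937-72061549 on the plus strand, inside an intron of Tcf12, which is read from the other strand. It matched Rpl15 at 98.7% over 613 bases, with 8 substitutions, of which 4 changed an amino acid. Coding bases 275 to 364 hold C322T, G323A and C354G. They are shown for the parent, for Rpl15-ps2 at chr9:72061209-72061298, and for Rpl15-ps3, a copy with 100% identity, at chr9:22185858-22185947 on the minus strand. Capitals mark the 3 positions, and Rpl15-ps3 has the parent's bases at all of them.

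Rpl15: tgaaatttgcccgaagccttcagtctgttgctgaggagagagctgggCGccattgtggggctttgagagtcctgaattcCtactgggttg

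Rpl15-ps2: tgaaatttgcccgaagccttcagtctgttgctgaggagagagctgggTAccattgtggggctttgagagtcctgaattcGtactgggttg

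Rpl15-ps3: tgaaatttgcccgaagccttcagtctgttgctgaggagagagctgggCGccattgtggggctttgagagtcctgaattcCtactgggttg

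Rps13 encodes a small-subunit protein, and 2 of its copies had values well above the rest of that family. Rps13-ps1 (ENSMUSG00000066362, chr8:87047689-87048226, plus strand) differed from the coding sequence by T411C and A429G, both synonymous. Rps13-ps2 (ENSMUSG00000069972, chr7:88530446-88530898, minus strand) matched the parent at 100%. Coding bases 364 to 453 are shown with both positions in capitals, for the parent, for Rps13-ps1 at chr8:87048083-87048172 and for Rps13-ps2 at chr7:88530446-88530535. All sequences are from the GENCODE M21 transcripts, written 5′ to 3′ on the gene's own strand.

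Rps13: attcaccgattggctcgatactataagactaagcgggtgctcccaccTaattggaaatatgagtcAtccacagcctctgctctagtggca

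Rps13-ps1: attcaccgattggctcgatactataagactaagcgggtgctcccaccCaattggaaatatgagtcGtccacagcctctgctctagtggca

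Rps13-ps2: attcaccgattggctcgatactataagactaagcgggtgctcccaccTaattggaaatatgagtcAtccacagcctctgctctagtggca

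Most of the pseudogenes were listed at very low values. The median of their means over the 6 samples was 1.44 normalized counts, 79 had a mean below 1, and 39 were above 0 in a single sample. Only 32 were above 0 in all samples, and 24 reached the mean of 10 required for testing. The member just inside that limit was Rps19-ps3 with a mean of 12.1, and the one just outside was Rps2-ps6 with 7.95. Between 89 and 133 members were above 0 in a given sample. The lowest numbers, 105 and 89, were those of Dock3 KO replicates 1 and 2, which were also the shallowest libraries by an estimate from their low values (23900000 and 21700000 reads, against 28200000 to 32700000 in the other 4). All WT samples were at 0 for 21 members and all Dock3 KO samples for 29. For those with low values in the other genotype, absence could not be told from a level too low to be sampled at these depths. A 0 against higher values still depends on how shared reads were assigned.

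A few members held nearly all of the value. In every sample the top 12 made up 94.8% to 97.8% of the summed value of the 194. Members more like their parent tended to have higher means. Spearman's rho between the mean and the identity to the parent transcript was 0.71 over the 191 members with an alignment, all measured in the same 6 libraries and many sharing a parent. The median identity was 99.9% for the 24 tested members and 96.9% for the 167 others, and none of the 19 members below 90% was tested. The plot of level against identity shows the same separation. Identity of 99% or more was not sufficient for a high value, since 28 members with it stayed below the mean of 10.

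**Figure D1:**
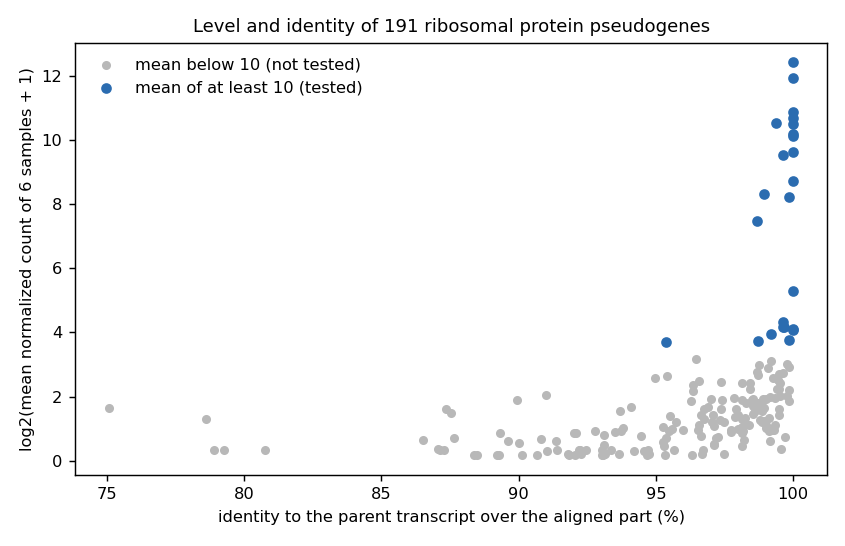
Mean normalized count of the 6 samples, as log2(mean + 1), against identity to the parent transcript over the aligned part, in percent, for 191 pseudogenes (1 point each). The 24 tested members lie at 95.4% identity or more, while grey points of 99% or more show that a close match did not always go with a high value.

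Of the 10 members with the highest means, Rps2-ps10 passed the test and is described further below, and 9 did not. Rpl10-ps3 (chr9:50344201-50344968, minus strand), a full-length copy of the gene of a large-subunit protein, had 4804, 5360 and 6242 normalized counts in the WT muscles and 6225, 4999 and 5130 in the Dock3 KO muscles. The groups overlapped, and the log2 difference was -0.00 ± 0.14 (SE, n = 3 per group, limma adjusted p = 0.998). Rps12-ps3 (chr19:59322290-59322783, plus strand), a copy of a small-subunit gene, had 3151, 3990 and 4420 in WT and 4331, 3292 and 4020 in Dock3 KO. These groups overlapped too (log2 difference 0.01 ± 0.16, limma adjusted p = 0.990).

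Both were listed above their parents. Per kilobase of transcript, Rpl10-ps3 had a WT mean of 7121 normalized counts and Rpl10 one of 750. For Rps12-ps3 and Rps12 the WT means per kilobase were 7801 and 271. Each copy was identical to its parent over the aligned part, 740 of 768 bases for Rpl10-ps3 and all 494 bases for Rps12-ps3. No word of 31 bases in Rps12-ps3 set it apart from Rps12, so sequence alone could not divide reads from the shared stretch. The aligned Rps12 transcript had 584 bases and so reached beyond the copy. The split between these loci is uncertain. The pseudogenes made up 81.2% to 92.8% of the summed value of the Rpl10 family and 95.4% to 96.1% of that of the Rps12 family.

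Another 7 of the 10 highest members did not pass the test and had overlapping groups: Rps23-ps1, Rpl31-ps8, Rpl10a-ps1, Rpl28-ps1, Rps6-ps4, Rps16-ps2 and Rps13-ps1. Rpl31-ps8, a copy of a large-subunit gene and the member of its family with the highest value, had 1483, 1944 and 2179 in WT and 1705, 1306 and 1195 in Dock3 KO. Its log2 difference was -0.41 ± 0.18 (limma adjusted p = 0.465). Apart from Rps13-ps1, every word of 31 bases in these copies also occurred in the parent, and their log2 differences ran from -0.45 for Rps6-ps4 to 0.34 for Rps16-ps2.

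In the Dock3 KO muscles 3 members fell and none rose, by limma over all 16031 tested genes with a threshold of 0.05 on the adjusted p. Over the whole table, 0.586% of tested genes were lower and 0.443% were higher in Dock3 KO. At an unadjusted p under 0.05, 6 members were lower and 1 was higher, beside 5.70% and 4.82% of all tested genes. A member that reached the mean of 10 through WT alone had to be low in Dock3 KO, so the share of the 24 is not read as a result. With no limit on the mean, when all 194 members were in the fit, the same 3 were lower (1.55%), beside 0.356% of all genes. The direction over the 24 was mixed, with 15 log2 differences below 0, 9 above, and a median of -0.22. Over all tested genes the median was -0.01. Over the 362 other tested processed pseudogenes it was -0.07, and 23 of them were lower and 2 higher. They had passed the same limit on the mean, so their counts are not read as a result either.

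**Figure D2:**
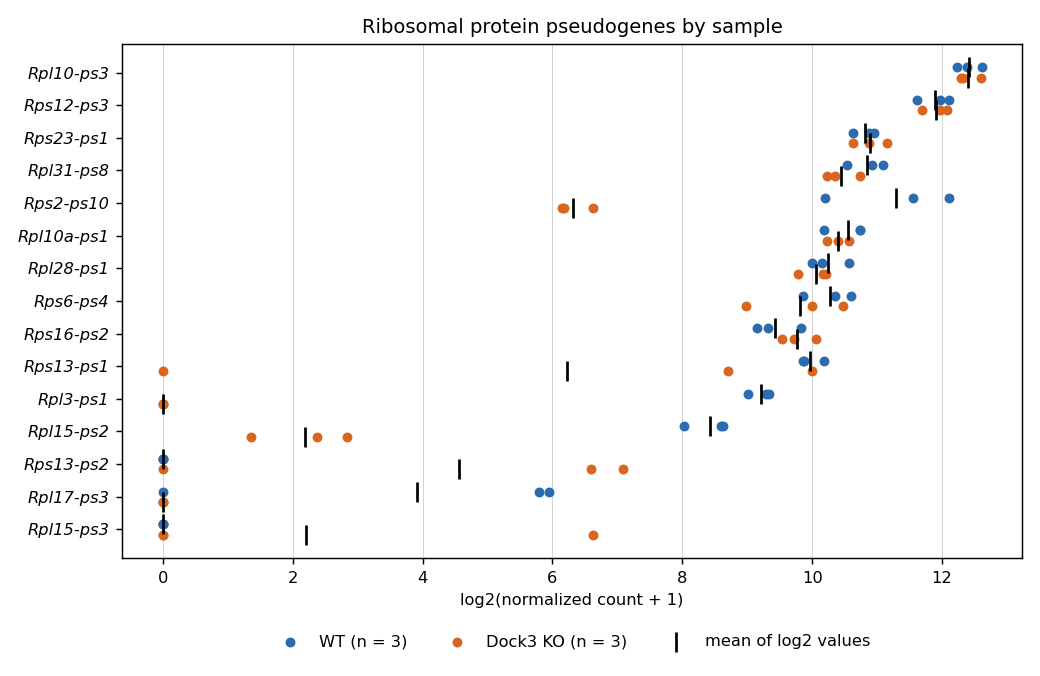
Values of 15 pseudogenes as log2(normalized count + 1) in the 3 WT (blue) and 3 Dock3 KO (orange) muscles, with a black bar at each group's mean of log2 values. The groups lie far apart for Rps2-ps10, Rpl3-ps1 and Rpl15-ps2, and overlap for the 9 other members with high values and for 3 that are at 0 in all muscles of 1 genotype.

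Rpl3-ps1 had 515, 648 and 626 normalized counts in the WT muscles and was listed at 0 in each Dock3 KO muscle. It was level within WT, and the groups did not overlap (limma adjusted p = 1.13e-06). No fold is given against a group at 0. Its parent Rpl3, whose protein reaches towards the catalytic centre of the large subunit, had 806, 1098 and 1394 in WT and 1620, 1175 and 1343 in Dock3 KO. The groups of Rpl3 overlapped, with a log2 difference of 0.35 ± 0.20 (limma adjusted p = 0.621). Summed with its 2 pseudogenes, the Rpl3 family had 1322, 1747 and 2023 in WT and 1620, 1178 and 1343 in Dock3 KO. The sums overlapped as well (log2 difference -0.29, limma adjusted p = 0.654). Of this sum, the pseudogenes held 39.0%, 37.2% and 31.1% in WT and 0%, 0.257% and 0.0579% in Dock3 KO.

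Rpl15-ps2 had 261, 387 and 395 in WT and 4.19, 1.56 and 6.16 in Dock3 KO. All Dock3 KO muscles were far below the lowest WT muscle, and the log2 difference was -6.23 ± 0.42 (SE, n = 3 per group, limma adjusted p = 5.63e-05), on the log2(value + 1) scale, which understates changes of low values. The parent Rpl15 had 2442, 2876 and 3306 in WT and 5232, 4229 and 4306 in Dock3 KO. Its groups did not overlap, with the Dock3 KO muscles higher, but it did not pass the test (log2 difference 0.68 ± 0.15, limma adjusted p = 0.0803). The family sum was 2704, 3263 and 3702 in WT and 5246, 4234 and 4411 in Dock3 KO, with a log2 difference of 0.53 (limma adjusted p = 0.196). The pseudogenes held 9.71% to 11.9% of that sum in WT and 0.109% to 2.37% in Dock3 KO, where the highest share was that of replicate 3.

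That share came from Rpl15-ps3, the copy with the parent's bases throughout. It was listed at 0 in all WT muscles and in Dock3 KO replicates 1 and 2, and at 97.6 in Dock3 KO replicate 3. One muscle alone carried it, and it did not pass the test (limma adjusted p = 0.759).

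Rps2-ps10 (ENSMUSG00000091957) is a copy of Rps2, the gene of a small-subunit protein, annotated as a transcribed processed pseudogene at chr18:61259008-61259972 on the minus strand, inside an intron of Pde6a on the other strand. It had 1177, 3016 and 4397 in WT and 71.5, 97.2 and 69.7 in Dock3 KO. WT varied widely, yet its lowest muscle was far above the highest Dock3 KO muscle. The log2 difference was -4.97 ± 0.40 (SE, n = 3 per group, limma adjusted p = 0.00019). Over 934 aligned bases it had 6 mismatches to Rps2 (99.4% identity), and the 5 in the coding sequence (T60A, T204C, C444T, C453A and T756C) were synonymous.

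Rps2 itself had 7565, 7279 and 7118 in WT and 11363, 8234 and 11132 in Dock3 KO. All Dock3 KO muscles were above all WT muscles, but Rps2 did not pass the test (log2 difference 0.47 ± 0.15, limma adjusted p = 0.254). With the 10 pseudogenes added, the Rps2 family had 8766, 10350 and 11590 in WT and 11449, 8347 and 11238 in Dock3 KO. These sums overlapped, with a log2 difference of 0.01 (limma adjusted p = 0.994). The pseudogenes held 13.7%, 29.7% and 38.6% of the sum in WT and 0.748%, 1.35% and 0.944% in Dock3 KO. Shares of 3 against 3 muscles cannot reach a two-sided exact permutation p below 0.1.

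Another Rps2 copy, Rps2-ps13 on the X chromosome, was singled out after its values were seen because it carries all 5 of the coding substitutions of Rps2-ps10, with A84G and G300A in addition. It had 3.54, 33.1 and 40.4 in WT and 0, 3.16 and 6.92 in Dock3 KO. WT replicate 1 was as low as the Dock3 KO muscles, and the difference did not pass the test (limma adjusted p = 0.437). In both copies, WT replicate 1 was the lowest of the WT muscles. That replicate was also the lowest WT muscle for the summed members and for the summed parents. The order is therefore not particular to these copies.

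**Figure D3:**
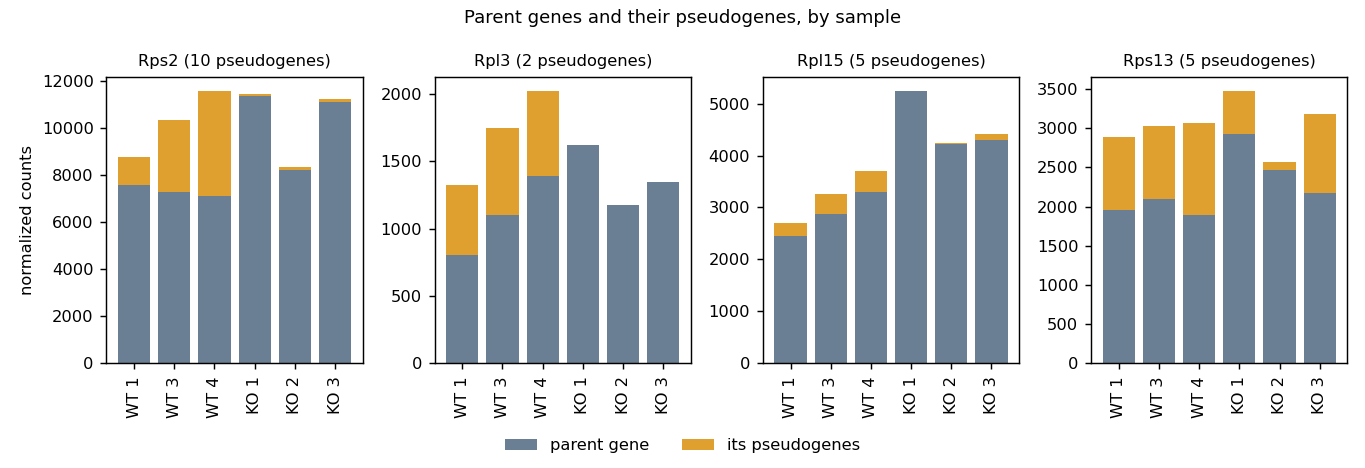
Normalized counts of 4 parent genes (grey) with the summed values of their pseudogenes stacked on top (yellow), in each of the 6 muscles. In the Rps2, Rpl3 and Rpl15 families the yellow part is visible in every WT muscle and almost gone in the Dock3 KO muscles, while the stacked totals overlap for Rps2, Rpl3 and Rps13.

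The Rps13 copies varied among the Dock3 KO muscles. Rps13-ps1 had 936, 928 and 1163 in WT, and 416, 0 and 1017 in Dock3 KO. Dock3 KO replicate 3 was within the WT range and replicate 2 was listed at 0. The log2 difference of -3.74 ± 2.0 (SE) did not pass the test (limma adjusted p = 0.579). It rested on the single 0 of Dock3 KO replicate 2: without that muscle it was -0.63, and without Dock3 KO replicate 3 it was -5.62. With a block for the replicate number it was -0.52. Number 2 was only in Dock3 KO and number 4 only in WT. That fit therefore took the difference from numbers 1 and 3, also without the 0. Rps13-ps2 was listed at 0 in all WT muscles and had 135, 95.3 and 0 in Dock3 KO, so it was present in the replicates in which Rps13-ps1 was below its WT range or at 0. These 2 muscles also had the highest shares of Gm42418 and Lars2 (17.9% and 20.3%, against 3.64% in replicate 3) and the lowest estimated depths, and the part of either was not tested. It did not pass the test with all muscles (limma adjusted p = 0.342). Without Dock3 KO replicate 3 it did, as the only member then called higher (limma adjusted p = 0.00531). The parent Rps13 had 1956, 2093 and 1896 in WT and 2922, 2469 and 2169 in Dock3 KO, all higher than in WT but short of the threshold (log2 difference 0.34 ± 0.14, limma adjusted p = 0.416). The family sums overlapped (log2 difference 0.03, limma adjusted p = 0.972).

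Rpl17-ps3 (ENSMUSG00000113948, chr12:67510756-67511311, plus strand), a copy of a large-subunit gene, was the remaining member listed at 0 throughout 1 genotype with a mean of at least 10 in the other. It had 54.2, 0 and 60.6 in WT and was listed at 0 in each Dock3 KO muscle. WT replicate 3 was at 0 like the Dock3 KO muscles, and the test was not passed (limma adjusted p = 0.39). Without that replicate it passed (limma adjusted p = 0.0309), which made 4 members lower. Its parent Rpl17 had a log2 difference of -0.05 ± 0.17 (limma adjusted p = 0.962).

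Counting members whose groups did not overlap, 4 of the 24 were lower in Dock3 KO and 0 were higher, where 8.65% of all tested genes were lower and 7.60% were higher in that way. The count is given as a description, since members that reached the mean of 10 through WT alone were bound to be lower. The fourth, beside the 3 that passed the test, was Rps19-ps3 with 15.2, 19.95 and 16.5 in WT and 2.87, 11.2 and 6.93 in Dock3 KO (limma adjusted p = 0.484), and its Dock3 KO mean of 7.02 lay below that limit.

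The 3 members that fell each held words of 31 bases that their parent lacks. Fewer words occurred in no other annotated gene at all: 26 of 935 in Rps2-ps10, 62 of 583 in Rpl15-ps2 and 31 of 1180 in Rpl3-ps1. Reads from these copies may therefore fit genes other than the parent. Of the 24 tested members, 11 had all their words of 31 bases in the parent, and none of the 11 passed limma's test (1 lower and 1 higher at an unadjusted p under 0.05). Of the 13 with some words absent from the parent, 3 were lower and none was higher (5 lower at an unadjusted p under 0.05). Of all tested genes, 0.586% were lower and 0.443% were higher by the adjusted threshold (5.70% and 4.82% at an unadjusted p under 0.05). A member that passed the limit on the mean through WT alone had to be low in Dock3 KO. The counts of these classes are therefore not read as a result, and whether the classes differ was not tested. Over the coding bases they covered, 20 of the 24 had neither a gap nor an inner stop, and 18 of the 24 covered the parent's entire coding sequence.

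**Figure D4:**
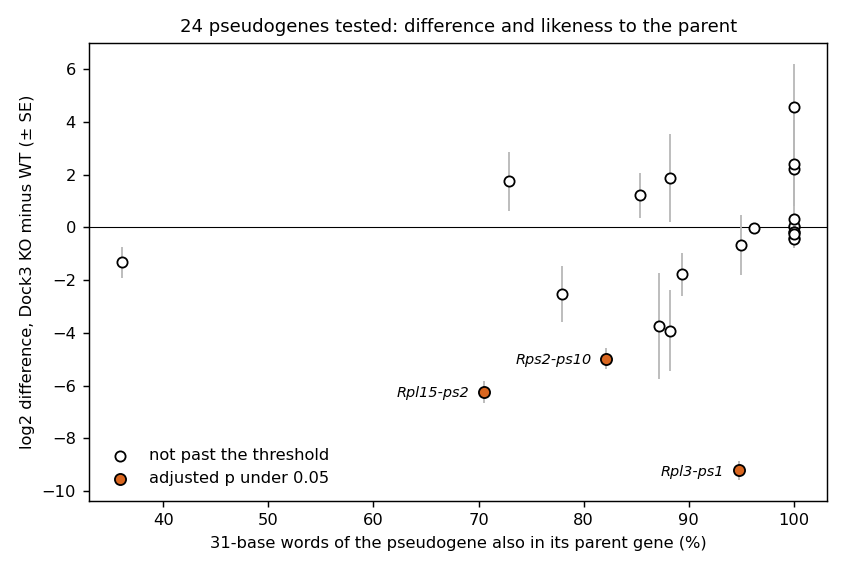
Log2 difference between Dock3 KO and WT (± SE) for the 24 tested pseudogenes against the share of their words of 31 bases that also occur in the parent gene, in percent. The 3 filled points passed the threshold and lie below 100%; the height of Rpl3-ps1 depends on the 1 added to each value, since it was listed at 0 in Dock3 KO.

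Across parents, 1 of 53 passed the test, and it was higher in Dock3 KO. This was Rpl29, the gene of a large-subunit protein, named after its value was seen. The gene lies at chr9:106429454-106431568 on the plus strand, and its distance from Dock3 was not examined. It had 1015, 987 and 939 in WT and 3668, 2991 and 3501 in Dock3 KO (log2 difference 1.78 ± 0.13, limma adjusted p = 8.04e-05). The median over the parents was -0.01. At an unadjusted p under 0.05, 6 parents were higher and 0 were lower, where 4.82% and 5.70% of all tested genes were. The groups did not overlap for 6 higher and 2 lower parents, beside 7.60% and 8.65% of all tested genes. Rpl10, parent of the member with the highest mean, was among the 6 (log2 difference 0.62 ± 0.21, limma adjusted p = 0.297). In the fit of family sums, 1.01% of all rows passed in either direction, and 1 of 53 families did, again Rpl29 (log2 difference 1.77, limma adjusted p = 8.75e-05). With its 2 -ps members the sums were 1020, 1004 and 949 in WT and 3674, 2992 and 3503 in Dock3 KO, close to the values of Rpl29 alone.

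The annotation holds further processed pseudogenes that match these parents at 95% identity or more under other symbols. Of 376 such copies, 21 were tested, 3 were lower and 0 were higher in Dock3 KO by limma (7 lower and 0 higher at an unadjusted p under 0.05, where 5.70% and 4.82% of all tested genes were). By the adjusted threshold, 0.586% of all tested genes were lower and 0.443% were higher. A copy that reached the mean of 10 through WT alone had to be low in Dock3 KO, so the share of the 21 is not read as a result. The 3 lower copies were named after their values were seen. Gm8210, a copy of Rpl29 at 99.4% identity, had 1322, 1783 and 1870 in WT and was listed at 0 in each Dock3 KO muscle (limma adjusted p = 1.67e-07). Gm12191, a copy of Rpl30 at 99.7%, had 725, 714 and 832 in WT and was likewise listed at 0 in Dock3 KO (limma adjusted p = 8.02e-07). Gm10020, a copy of Rpl15 at 99.7%, had 455, 569 and 639 in WT and 12.6, 0 and 6.98 in Dock3 KO (limma adjusted p = 0.00187). In each case the groups were wide apart, and the parent's value lay higher in Dock3 KO. For Rpl30 the parent had 1492, 1805 and 1767 in WT and 3008, 2160 and 3055 in Dock3 KO (limma adjusted p = 0.108).

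With all such copies added to the family sums, no family passed limma's test. The Rpl29 family then had 2366, 2805 and 2837 in WT and 3711, 3015 and 3529 in Dock3 KO, still without overlap, with a log2 difference of 0.36 (limma adjusted p = 0.363). The difference for Rpl15 became 0.29 (limma adjusted p = 0.555), that for Rpl30 0.14 (limma adjusted p = 0.835), and that for Rps2 0.00 (limma adjusted p = 0.9998).

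The other genes of the ribosome gave the setting. Of 47 large-subunit genes, 1 was higher (Rpl29) and 0 were lower (4 higher and 1 lower at an unadjusted p under 0.05), and of 33 small-subunit genes none passed limma's test (0 lower and 2 higher at an unadjusted p under 0.05). The medians of their log2 differences were -0.03 and -0.02. Of 9 ribosomal paralogs, 7 were tested and none passed limma's test (0 lower and 1 higher at an unadjusted p under 0.05). None of 30 ribosome biogenesis factors passed it either (2 lower and 0 higher at an unadjusted p under 0.05). Over all tested genes, 0.443% were higher and 0.586% were lower by the adjusted threshold. At an unadjusted p under 0.05, 4.82% were higher and 5.70% were lower.

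Summed over all 194, the pseudogenes had 18407, 24606 and 28124 normalized counts in WT and 21028, 15856 and 19327 in Dock3 KO. Relative to the summed value of the 53 parents, this was 15.4%, 17.4% and 17.7% in WT and 12.7%, 12.3% and 14.4% in Dock3 KO, with no overlap. Without the 3 members that fell, the same ratio was 13.8%, 14.6% and 14.3% in WT and 12.6%, 12.2% and 14.4% in Dock3 KO. Only Dock3 KO replicate 3 then overlapped WT. The 3 were picked for being lower in these same data, so leaving them out had to narrow the gap. The 170 members below the mean of 10 summed to 283, 354 and 307 in WT and 318, 261 and 244 in Dock3 KO, also with overlap.

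Several properties of the libraries differed between the groups. The targeted gene Dock3 was listed at 169, 161 and 118 normalized counts in the WT muscles, against 22.4, 1.78 and 1.54 in those labelled Dock3 KO. Gm42418 and Lars2 together took 17.9% and 20.3% of the value in Dock3 KO replicates 1 and 2, and 3.00% to 3.64% in the other 4 samples. Dock3 KO replicate 3, with a WT-like share, was as low as the other Dock3 KO muscles for Rps2-ps10 and Rpl3-ps1, and had 6.16 for Rpl15-ps2. For Rps13-ps1 and Rps13-ps2, and for Rpl15-ps3, it stood apart from the other Dock3 KO muscles instead. All 12 markers of skeletal muscle were above 0, and none passed limma's test (0 at an unadjusted p under 0.05). Summed values of 7 fibroblast markers were 36352 to 37413 in WT and 45913 to 52021 in Dock3 KO, and 3 of the 7, Col1a1, Col3a1 and Fbn1, were higher by the test. The log2 differences of Dcn (-0.28) and Lum (-0.48), markers of the same cells, were below 0 and did not pass it. None of the markers of macrophages, adipocytes, red blood cells, Schwann cells or endothelium passed it (at an unadjusted p under 0.05, 1 adipocyte marker was higher and 1 Schwann cell marker was lower). The part of these shifts in the pseudogene values was not tested. In bulk muscle, fewer cells of a type and less RNA per cell cannot be told apart.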

How the data were processed

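Ribosomal RNA-depleted, stranded, paired-end RNA-seq libraries of 6 muscles were made by the authors, per the labels' protocols. The authors deposited 1 table of normalized counts, whose nonzero values are mostly not whole and whose sums differ, so they are handled as a signal for each gene. The submitters' processing notes name FastQC, Trim Galore 0.4.5, Salmon 0.12.0, DESeq2 1.22.1 and R 3.5.3, and the build mm10 (GRCm38). The annotation, the handling of reads that fit several genes and the use of strand are not given in the sources used here. The deposited scaling sets the samples against each other, so each difference depends on it.

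All 54393 gene identifiers matched GENCODE M21 (GRCm38), which gave symbols, positions and transcripts. It lists 289 symbols of the kind studied, and 12 of them had no row and were not analysed here. Whole reads could not be recovered from the values, so no count model was fitted, no counting interval is given, and the depth is an estimate from the lowest values. Values were tested as log2(value + 1) with limma 3.58.1 (R 4.3.3; trended prior variance) over the 16031 genes with a mean of at least 10, with Benjamini-Hochberg adjustment and a threshold of 0.05. Log2 differences are Dock3 KO minus WT. Family sums were fitted in a second table. Identity came from blastn 2.17.0 of member against parent transcripts, the best hit being kept. The limma code was tested on simulated data.

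Named were the members past the threshold, those at 0 throughout 1 genotype with a mean of at least 10 in the other, the 10 tested members with the highest means, and their parents. Members, lists and this rule were chosen with earlier results of these data known. Alternatives changed the pseudocount, the filter, the scaling, the prior variance and the samples used, and added a replicate block. Rescaling without Gm42418 and Lars2, and adding near-identical copies to families, were chosen after the data were seen.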

Additional observations from a re-analysis of the deposited data

How the results depend on the processing

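Rps2-ps10, Rpl3-ps1 and Rpl15-ps2 were called lower in all 17 alternative fits, with adjusted p (limma) of at most 0.0132, 0.000221 and 0.00241. No named member, parent or family sum with a call turned its direction. Leaving out 1 muscle at a time gave 3 to 4 members lower (4 without WT replicate 3, with Rpl17-ps3) and 0 to 1 higher (1 without Dock3 KO replicate 3, Rps13-ps2). It gave 1 to 2 parents, 1 to 2 family sums and 1 to 2 ribosomal protein genes called, the added one being Rpl30 without Dock3 KO replicate 2. With every near-identical copy added, 0 family sums were called instead of 1. Rescaling to the same total moved the median of all genes to -0.28, and doing so without Gm42418 and Lars2 to -0.11. The called members were 3 lower and 0 higher under both. The median identity of the tested members was 99.8% with the longest parent transcript only.

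With the replicate block, 3 members were lower and 0 were higher. Numbers 2 and 4 each occurred in 1 genotype only, so this fit took the differences from numbers 1 and 3. Deviations of the same-numbered muscles correlated at r = 0.065 for number 1 and 0.0066 for number 3. So few correlations cannot show whether same-numbered muscles were handled together, and the labels do not say. The numbers are used here as names of samples. The block left 1 residual degree of freedom. Depth limits what can be said of the 170 members below a mean of 10. None of them was called by limma when the limit on the mean was dropped.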
